A study of Macaca mulatta with 136 samples.

Results

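The integrated stress response genes examined here were the 8 genes CHAC1, ATF4, DDIT3, TRIB3, ASNS, SESN2, PSAT1 and PHGDH, matched to the gene symbol column of the deposited expression files. Symbols matched for 7 of the 8, among 17727 symbols in 19432 entries, and ATF4 itself was not analysed here. CHAC1 was selected on its measured retinal difference between fovea and periphery, so its values in any comparison that uses retina fovea or retina periphery libraries are given as a description, with no test. The other genes were chosen because they are known members of the same pathway, with earlier results of these data known. The question asked of the data was whether CHAC1 moved with the other targets of ATF4 across the retina and the tissue under it.

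In the integrated stress response, kinases that sense amino acid shortage, misfolded protein, double-stranded RNA or heme shortage phosphorylate the translation factor eIF2alpha. General translation then falls while the transcription factor ATF4 is translated more, and ATF4 raises genes for amino acid synthesis and uptake, tRNA charging and redox balance. CHAC1, a gamma-glutamylcyclotransferase that breaks down glutathione, is a widely used readout of this pathway. DDIT3 (CHOP) is a transcription factor downstream of ATF4, and TRIB3 is a pseudokinase induced by both. ASNS makes asparagine, PHGDH and PSAT1 carry out the first steps of serine synthesis from glucose, and SESN2 is a sestrin that restrains mTORC1. In the retina, serine synthesis is best known in Mueller glia, the radial glia that span the neural layers.

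RNA was sequenced from 2 mm punches of postmortem eyes of 2 adult rhesus macaques (Macaca mulatta), RM03 and RM04, with no treatment, allele or transgene named. Microdissection parted each punch into the neural layer (retina) and RPE/choroid, which is the pigment epithelium with its vascular bed. There were 4 locations (fovea/macula, perimacula, nasal and periphery) and 4 eyes, which gave 32 libraries, 4 for each tissue and location. Right (OD) and left (OS) eyes of the same animal count as separate replicates, so the error terms describe 4 eyes of 2 monkeys. Values are CPM, estimated counts scaled to a common library size and corrected by TMM, and values of the 4 eyes are listed for RM03 OD, RM03 OS, RM04 OD and RM04 OS in that order. Levels are not corrected for gene length and are compared only within a gene.

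Library totals ran from 42454001 to 78587023 estimated counts. Fovea, perimacula and nasal libraries were run in 5 lanes on 2 flow cells, and periphery libraries in 2 lanes on another flow cell, so the periphery and its flow cell cannot be told apart. The labelled tissues carried their markers. The summed level of 11 RPE markers was 12010 to 28760 CPM in RPE/choroid libraries and 300.9 to 1757 CPM in retina libraries, and that of 9 rod markers was 4012 to 28040 CPM in retina and 50.1 to 924 CPM in RPE/choroid. Being bulk punches, they cannot separate fewer cells of a type from less RNA per cell.

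CHAC1 (ENSMMUG00000014542) ran from 0.4999 to 93.1 CPM over the 32 libraries and was highest at the fovea of the retina. Foveal retina held 31.1, 93.1, 85.0 and 71.0 CPM. Perimacular retina held 8.71, 28.99, 20.7 and 19.9 CPM. All 4 foveal libraries were above all 4 perimacular ones, and within each eye the fovea was higher by 1.67 to 2.01 on the log2 scale.

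Nasal retina held 11.3, 13.5, 13.8 and 11.96 CPM of CHAC1, and peripheral retina 2.75, 0.976, 2.05 and 6.03 CPM. The group means fell from 70.1 ± 27.6 CPM (SD, n = 4) at the fovea to 19.6 ± 8.33 at the perimacula, 12.6 ± 1.203 nasally and 2.95 ± 2.18 at the periphery. The perimacular and nasal ranges overlapped, while the fovea stood above both and the periphery below both. The fitted foveal level was 25.4-fold that of the periphery (log2 difference 4.66 ± 0.54 SE), 3.68-fold that of the perimacula (1.88 ± 0.48) and 5.72-fold the nasal level (2.52 ± 0.45). The foveal excess over the periphery was present in 4 of 4 eyes, with log2 differences of 3.28 to 5.99. It was the 32nd highest of 15389 tested entries in that comparison, which is the measure that chose the gene.

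The right eye of RM03 had the lowest foveal and the lowest perimacular CHAC1 of the 4 eyes. Its foveal library also differed most from the other eyes over 15495 entries. The root mean square log2 difference was 0.585, against 0.453 to 0.471 for the other foveal libraries. Its perimacular library did not stand apart in this way (0.552, against 0.523 to 0.557). Lane and flow cell values are given without TMM factors, unlike the library values above. The 5 lanes of the RM03 OD foveal library gave 27.4 to 39.4 CPM. Lanes of the other 3 foveal libraries gave 67.2 to 110 CPM. Values on the separate flow cells were 32.6 and 29.9 CPM in RM03 OD. In the same order they were 106.6 and 86.4 CPM in RM03 OS, 96.9 and 79.6 CPM in RM04 OD, and 76.2 and 68.3 CPM in RM04 OS.

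**Figure D1:**
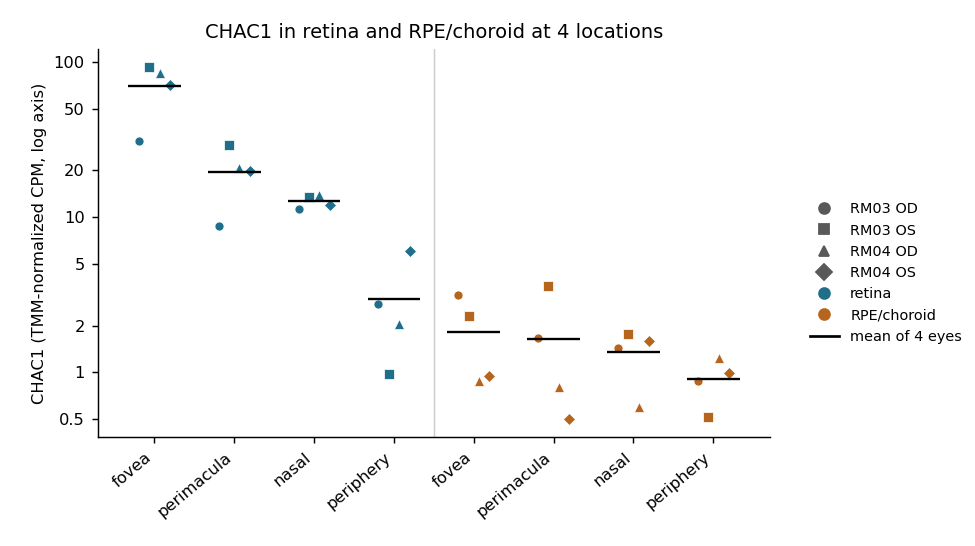
CHAC1 level in TMM-normalized CPM on a log axis for the 32 libraries, by tissue and location. Symbols mark the eye, colours the tissue and black lines the mean of 4 eyes. The retina falls from a mean of 70.1 CPM at the fovea to 2.95 CPM at the periphery, and the RPE/choroid libraries lie between 0.4999 and 3.6 CPM.

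The 1 retinal comparison of CHAC1 that its choice did not touch, perimacula against nasal, gave a log2 difference of 0.64 ± 0.43 SE. The perimacula was higher in 3 of 4 eyes, and the difference did not pass (edgeR adjusted p = 0.497). An approximate 95% interval, taken from the SE by a normal approximation, ran from -0.20 to 1.48. RPE/choroid held little CHAC1 at any location. The foveal values were 3.15, 2.32, 0.881 and 0.955 CPM, and the peripheral ones 0.886, 0.515, 1.24 and 0.998 CPM. Perimacular RPE/choroid had 1.66, 3.6, 0.806 and 0.4999 CPM, and the nasal libraries 1.44, 1.76, 0.6004 and 1.603 CPM. The ranges of the 4 locations all overlapped. None of the tested differences passed: fovea minus periphery was 0.65 ± 0.56 on the log2 scale (edgeR adjusted p = 0.372) and fovea minus perimacula 0.21 ± 0.53 (edgeR adjusted p = 0.926). The approximate intervals were wide, with the first running from -0.44 to 1.73, and the libraries held 26.3 to 221 estimated counts of CHAC1.

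Between tissues, CHAC1 was higher in the retina at each location. At the perimacula the retina was 12.4-fold higher (log2 difference 3.63 ± 0.64, edgeR adjusted p = 3.14e-05), and at the nasal location 9.48-fold higher (3.25 ± 0.57, edgeR adjusted p = 1.32e-05). The sign held in 4 of 4 eyes at both locations and the tissue ranges did not touch. At the fovea the fitted ratio was 40.5-fold and at the periphery 3.27-fold, where the highest RPE/choroid library (1.24 CPM) exceeded the lowest retinal one (0.976 CPM).

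DDIT3 (ENSMMUG00000011286), the CHOP transcription factor, ran the other way. Foveal retina held 13.1, 12.7, 11.6 and 11.99 CPM and peripheral retina 39.3, 37.9, 37.5 and 32.8 CPM. Every peripheral library was above every other retinal library. Perimacular retina (16.6, 16.3, 20.6 and 14.99 CPM) and nasal retina (15.97, 14.1, 17.7 and 16.1 CPM) lay between and overlapped each other. The foveal level was 2.88-fold lower than the peripheral one (log2 difference -1.53 ± 0.10, lower in 4 of 4 eyes). It was also lower than at the perimacula (-0.42 ± 0.10, edgeR adjusted p = 0.00726) and nasally (-0.31 ± 0.10, edgeR adjusted p = 0.0201). The nasal difference did not pass when RM03 OD, RM04 OD or RM04 OS was left out, with values of -0.31, -0.25 and -0.27.

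In RPE/choroid DDIT3 again stood highest in the periphery, at 24.3, 21.4, 20.03 and 17.7 CPM. The other 3 locations together spanned 9.31 to 15 CPM, below every peripheral library. Foveal RPE/choroid (12.7, 15, 11.7 and 13.3 CPM) was 1.59-fold lower than peripheral (log2 difference -0.67 ± 0.10, edgeR adjusted p = 0.000398). The fovea-minus-periphery difference was more negative in retina than in RPE/choroid (-0.88 ± 0.14 on the log2 scale), with the same sign in 4 of 4 eyes.

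TRIB3 (ENSMMUG00000012600) was barely detected in the retina. Its 16 retinal libraries held 0 to 0.109 CPM, from 0 to 6.05 estimated counts each, and the gene did not pass the low-count filter there. RPE/choroid libraries held 0.618 to 2.18 CPM. Foveal values were 1.13, 1.14, 0.705 and 1.42 CPM, and peripheral values 0.625, 0.772, 2.18 and 0.806 CPM. The ranges overlapped and the difference did not pass (log2 difference 0.08 ± 0.40, edgeR adjusted p = 0.888). The tissue ranges did not overlap at any location. TRIB3 passed the filter of the tissue comparison only through RPE/choroid, so its levels in the 2 tissues are given as a description, with no test.

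ASNS (ENSMMUG00000019157), asparagine synthetase, was the member that shared the direction of CHAC1 in the retina. Foveal libraries held 53.6, 50.4, 50.2 and 55.3 CPM and perimacular ones 45.2, 43.1, 43.2 and 56.6 CPM. Nasal libraries held 34.8, 34.1, 37.3 and 36.9 CPM and peripheral ones 32.9, 29.1, 41.0 and 35.2 CPM. The fovea and the perimacula were above the nasal location with no overlap, and the fovea was also above the periphery. The foveal level was 1.58-fold the peripheral level (log2 difference 0.66 ± 0.10) and 1.53-fold the nasal level (0.61 ± 0.09, edgeR adjusted p = 4.81e-05), in 4 of 4 eyes each. Fovea minus perimacula did not pass (0.21 ± 0.10, edgeR adjusted p = 0.124). Perimacula minus nasal was 0.40 ± 0.09 (edgeR adjusted p = 0.0399), and no longer passed with the eye as a block (0.40) or when any 1 eye was left out (0.34 to 0.44).

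In RPE/choroid the ASNS ranges of the 4 locations overlapped. Nasal libraries were the most spread, at 37.4, 22.7, 59.1 and 52.4 CPM. Foveal libraries held 22.1, 23.1, 41.9 and 31.8 CPM and peripheral ones 15.7, 21.9, 31.7 and 20.2 CPM. The fovea was higher than the periphery in 4 of 4 eyes, by 0.38 ± 0.15 on the log2 scale, which did not pass (edgeR adjusted p = 0.0662) but did with the eye as a block (0.40) and in DESeq2 (0.40). Retina exceeded RPE/choroid at the perimacula (0.77 ± 0.15, edgeR adjusted p = 0.000139) and at the fovea (0.90 ± 0.15, edgeR adjusted p = 2.44e-05). It did so at the periphery too (0.65 ± 0.15, edgeR adjusted p = 0.000776), where the ranges overlapped. The nasal difference of -0.21 ± 0.17 did not pass (edgeR adjusted p = 0.27).

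SESN2 (ENSMMUG00000019993), the sestrin, was close to level across the retina. Its 16 retinal libraries lay between 15.3 and 22.7 CPM. Foveal values were 21.5, 20.3, 16.9 and 15.6 CPM and peripheral values 22.7, 20.96, 17.1 and 18.2 CPM, a log2 difference of -0.04 ± 0.07. The foveal excess over the nasal location was small (0.18 ± 0.07, edgeR adjusted p = 0.0385) and did not pass when any 1 eye was left out (0.13 to 0.22). Nor did it pass with no filter on low counts (0.16), with no covariate (0.18), with the compared groups alone (0.17) or on either flow cell alone (0.14 and 0.16).

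The spread of SESN2 lay between animals. Both eyes of RM03 were above both eyes of RM04 in 8 of 8 groups, most widely in nasal RPE/choroid at 28.1, 30.9, 12.6 and 11.9 CPM. None of its RPE/choroid location differences passed, the largest being 0.26 ± 0.12 for fovea minus periphery (edgeR adjusted p = 0.113).

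PHGDH (ENSMMUG00000023089) and PSAT1 (ENSMMUG00000011868), the serine synthesis enzymes, rose from the centre of the retina outward. PSAT1 held 13.4, 14.7, 19.8 and 19.2 CPM at the fovea and 26.6, 33.2, 35.3 and 26.3 CPM at the perimacula. It held 42.4, 46.7, 45.8 and 48.4 CPM nasally and 67.0, 68.0, 82.9 and 83.2 CPM at the periphery. No neighbouring pair of these retinal groups overlapped. The foveal level of PSAT1 was 4.35-fold lower than the peripheral one (log2 difference -2.12 ± 0.12), and it was also lower than the nasal one (-1.41 ± 0.11, edgeR adjusted p = 2.2e-07). It was lower than the perimacular level too (-0.82 ± 0.11, edgeR adjusted p = 0.000335).

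PHGDH held 9.08, 10.4, 16.4 and 15 CPM in foveal retina and 36.7, 28.1, 53.6 and 53.8 CPM in peripheral retina. Perimacular libraries held 12.9, 17.9, 26.1 and 19.4 CPM and nasal ones 22.3, 23.6, 30.9 and 32.9 CPM. The fovea was below the nasal location and the periphery without overlap, and overlapped with the perimacula. The fold against the periphery was 3.25 (log2 difference -1.70 ± 0.13). Against the nasal location the difference was -1.07 ± 0.12 (edgeR adjusted p = 5.01e-06) and against the perimacula -0.54 ± 0.13 (edgeR adjusted p = 0.00628), in 4 of 4 eyes each. Without RM04 OD (-0.52) or with no covariate (-0.53) the last no longer passed. PHGDH was higher in both eyes of RM04 than in both eyes of RM03 in 8 of 8 groups, the reverse of SESN2.

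Between perimacula and nasal retina PSAT1 was lower at the perimacula (log2 difference -0.58 ± 0.11, edgeR adjusted p = 0.0162), as was PHGDH (-0.52 ± 0.12, edgeR adjusted p = 0.0449). PHGDH no longer passed with the eye as a block (-0.53), and neither passed when any 1 eye was left out, with ranges of -0.67 to -0.49 for PSAT1 and -0.64 to -0.44 for PHGDH.

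In RPE/choroid PSAT1 held 21.3, 16.2, 29.6 and 29.8 CPM at the fovea and 47.4, 51.6, 42.9 and 49.7 CPM at the periphery, with no overlap. The foveal level was 2.05-fold lower (log2 difference -1.03 ± 0.16, edgeR adjusted p = 0.000429). PHGDH differed less, with 35.6, 38.6, 68.9 and 74.0 CPM at the fovea and 67.9, 58.4, 77.4 and 93.0 CPM at the periphery. Those ranges overlapped, but each eye was lower at the fovea (-0.53 ± 0.13, edgeR adjusted p = 0.00733). The PHGDH difference did not pass without RM03 OD (-0.37) or with no covariate (-0.46).

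The perimacula of RPE/choroid stood above the nasal location for both enzymes in 4 of 4 eyes. PSAT1 differed by 0.62 ± 0.15 (edgeR adjusted p = 0.0395) and PHGDH by 0.54 ± 0.13 (edgeR adjusted p = 0.0409). The retinal difference between the same locations had the opposite sign, and that contrast between tissues was not tested. Neither RPE/choroid difference passed with the eye as a block (0.62 and 0.54) or when any 1 eye was left out (0.58 to 0.74 for PSAT1, 0.49 to 0.64 for PHGDH).

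PHGDH was lower in retina than in RPE/choroid at the fovea (log2 difference -2.02 ± 0.14, edgeR adjusted p = 8.45e-11) and at the periphery (-0.82 ± 0.14, edgeR adjusted p = 2.29e-05). PSAT1 changed sign with location: retina was lower at the fovea (-0.48 ± 0.15, edgeR adjusted p = 0.00572) and higher at the nasal location (1.13 ± 0.14, edgeR adjusted p = 4.35e-08) and the periphery (0.64 ± 0.15, edgeR adjusted p = 0.000556). The foveal difference did not pass without RM03 OD (-0.40). The symbol PSAT1 also stood on 4 further entries, each at 0 or close to it and under 0.0358 CPM in every library, and these were not used.

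**Figure D2:**
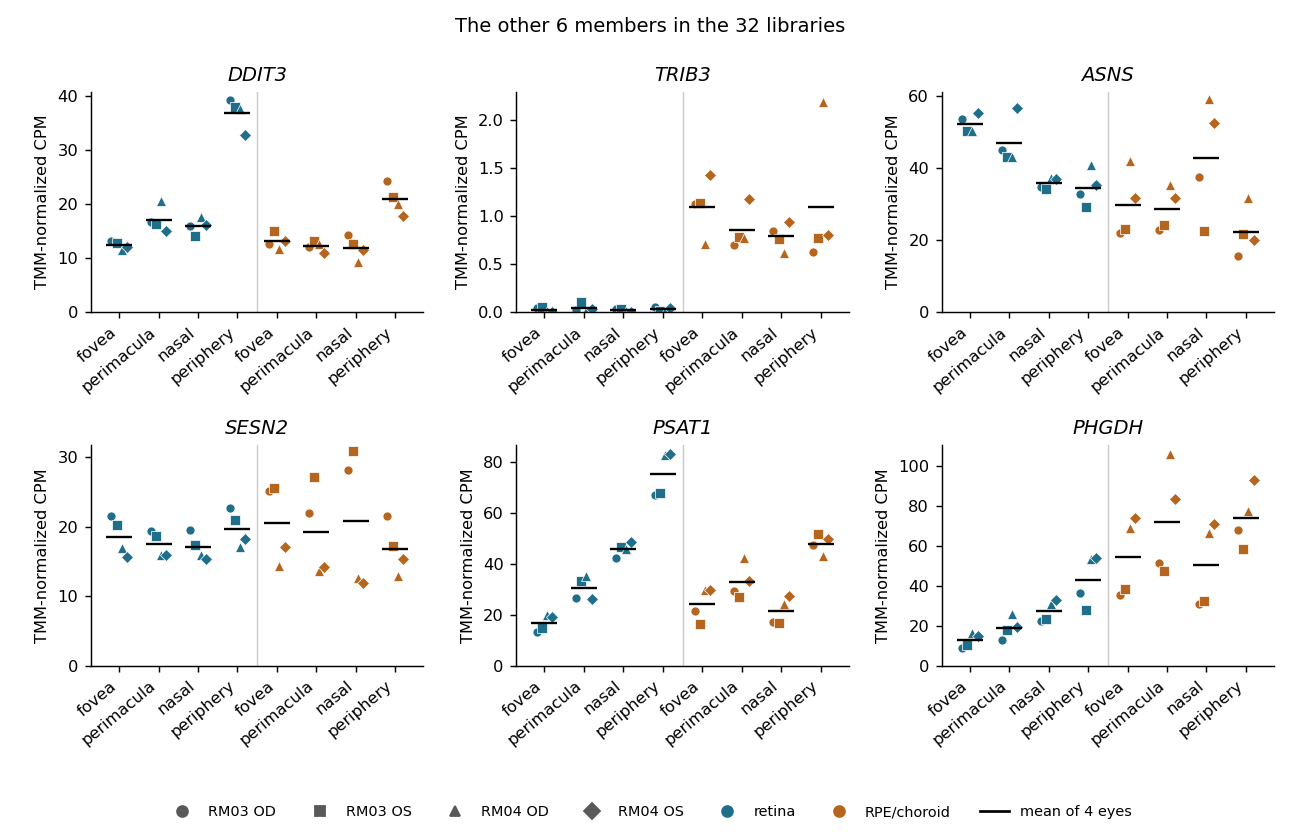
TMM-normalized CPM of DDIT3, TRIB3, ASNS, SESN2, PSAT1 and PHGDH in the 32 libraries on linear axes that start at 0, by location within retina and RPE/choroid. Symbols mark the eye and black lines the mean of 4 eyes. DDIT3, PSAT1 and PHGDH are highest in peripheral retina among the retinal groups, ASNS is highest at the fovea, and TRIB3 is at most 0.109 CPM in retina.

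Counts of members past an adjusted p of 0.05 are read against the share of all tested entries past it. Apart from CHAC1, 5 members were tested in retina. For fovea against periphery 4 of the 5 passed and 67.1% of all entries did, a contrast that the choice of CHAC1 used and from which nothing is read. For fovea against perimacula 3 of 5 passed (35.2% of all entries) and for fovea against nasal 5 of 5 (51.9%). Without RM03 OD, RM04 OD or RM04 OS the last count was 3. For perimacula against nasal 3 of 5 passed where 1.46% of all entries did, a count that was 1 with the eye as a block and 0 when any 1 eye was left out.

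In RPE/choroid 6 members besides CHAC1 were tested. Fovea against periphery passed for 3 of 6 (44.1% of all entries), all lower at the fovea. Perimacula against nasal passed for 2 of 6 (3.06%), and for 0 with the eye as a block or without any 1 eye. Fovea against perimacula passed for 0 of 6 in edgeR and in DESeq2 (0.0446% of all entries in edgeR), with 2 at an unadjusted p under 0.05. Fovea against nasal passed for 0 of 6 in both tools (0.361%), with 1 at an unadjusted p under 0.05.

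Between tissues most members passed, as did most genes. The counts besides CHAC1 and TRIB3 were 3 of 5 at the fovea (74.6% of all entries), 3 of 5 at the perimacula (75.6%), 3 of 5 at the nasal location (76.2%) and 4 of 5 at the periphery (74.3%). Whether the location difference itself differed between the tissues was tested as an interaction. It passed for DDIT3 alone in fovea minus perimacula (1 of 5, with 11.5% of all entries), and for DDIT3, ASNS, PSAT1 and PHGDH in fovea minus nasal (4 of 5, with 23.5%). For fovea minus periphery the count was 3 of 5 (40.2%), on a contrast that includes the one used to choose CHAC1.

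**Figure D3:**
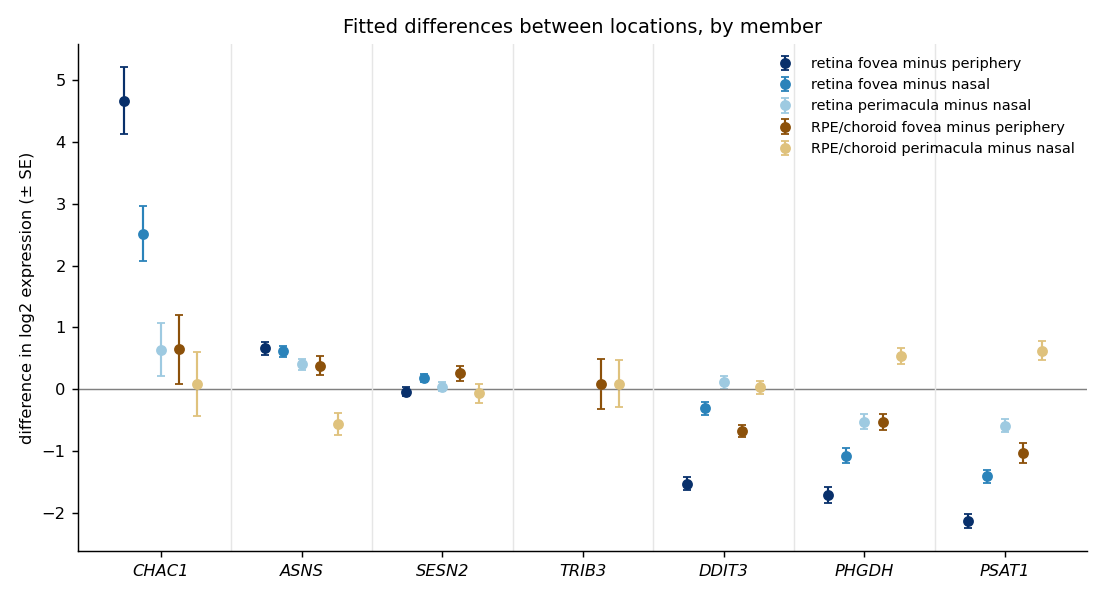
Fitted differences in log2 expression between locations for the 7 members, with SE bars, for 5 comparisons (blue, retina; brown, RPE/choroid). TRIB3 was not tested in retina. CHAC1 reaches 4.66 for retina fovea minus periphery, ASNS lies at 0.66, SESN2 at -0.04, and DDIT3, PHGDH and PSAT1 lie below 0 at -1.53, -1.70 and -2.12.

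Across the 16 retina libraries the members did not follow CHAC1 as a group. Pearson's r of log2 CPM with CHAC1 was 0.77 for ASNS, -0.21 for SESN2, -0.70 for PHGDH, -0.85 for PSAT1 and -0.88 for DDIT3. These 16 points are 4 eyes at 4 locations, share their libraries and normalization, and are given as a description. ASNS ranked 2096th of 12473 genes in likeness to CHAC1, and DDIT3 11811th. The values had a wide background, with 634 genes above 0.9, 444 below -0.9, and the middle of the distribution running from -0.65 to 0.63 (lower and upper quartile).

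Most of that pattern is the difference between locations. After the mean of each location was taken away, r with CHAC1 was 0.65 for PHGDH, 0.57 for PSAT1, 0.17 for ASNS, -0.25 for DDIT3 and -0.33 for SESN2. The sign for PHGDH and PSAT1 thus turned within locations, where 16 points hold 4 deviations for each of 4 locations. These deviations keep the differences between eyes and animals. PHGDH was higher in both RM04 eyes in 4 of 4 retinal groups and PSAT1 in 2, while CHAC1 overlapped between monkeys in all 4. The lowest CHAC1 library at each retinal location came from RM03 (31.1, 8.71, 11.3 and 0.976 CPM). The part of animal or eye in these correlations was not tested.

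The 10 genes whose retinal levels were most like CHAC1 were RABL6 (r = 0.993), STMN3 (0.990), DBN1 (0.984), PCGF3, NDEL1, FRS3, TRPM4, NOC2L, CPLX1 and CIC (0.980). Of these 10, 3 were in the top 10 by Spearman's rho and 1 in the top 10 on deviations from location means. None is among the listed stress response genes. STMN3 belongs to the stathmins, neuronal regulators of microtubules. Its foveal mean was 508.5 ± 88.7 CPM (SD, n = 4) and its peripheral mean 101 ± 32.4 CPM. CPLX1, a complexin of the synaptic release machinery, fell from 427 ± 95.7 to 76.2 ± 26.5 CPM. DBN1, the actin-binding drebrin, fell from 91.7 ± 18.8 to 19.6 ± 6.10 CPM. A fall from fovea to periphery follows from choosing genes by likeness to CHAC1, so nothing is read from it. These 3 are examples, and no function shared by the 10 was tested. In foveal RPE/choroid CPLX1 was at 3.06 and STMN3 at 24.4 CPM, while DBN1 was at 66.1 and RABL6 at 139 CPM. TRPM4 was higher there (39.97 CPM) than in foveal retina (22.3 CPM).

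In RPE/choroid, where CHAC1 was low, the highest correlations over 16 libraries were those of SLC4A11 (0.853), SLC40A1 (0.845) and CDH23 (0.841). Of the top 10 there, 5 stayed by Spearman's rho and 2 on deviations. Of the members SESN2 stood at 0.64 and PHGDH at -0.65, PSAT1 at -0.58, ASNS at -0.28 and DDIT3 at -0.11. SESN2 ranked 343rd of 12720 genes in likeness to CHAC1 and PHGDH 12413th, with quartiles of all genes at -0.304 and 0.295. On deviations from location means r was 0.62 for SESN2, 0.40 for DDIT3, -0.55 for ASNS, -0.64 for PHGDH and -0.65 for PSAT1. SESN2 and PHGDH are the members that split by monkey in every group. In RPE/choroid CHAC1 was higher in both eyes of RM03 in 2 of 4 groups and in both eyes of RM04 in 1.

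Cell markers moved with the same locations in retina. Of 14 lists of cell type markers, 3 were higher at the fovea than at the periphery with no overlap, 8 were lower with no overlap and 3 overlapped. Summed ganglion cell markers (13 of 13 in the files) were between 10770 and 12720 CPM at the fovea and between 691 and 1399 CPM at the periphery, the direction of CHAC1 and ASNS. Cone markers (3642 to 4353 against 2349 to 2736 CPM) and amacrine and horizontal cell markers (1771 to 1934 against 897.5 to 1214 CPM) were also higher at the fovea. Summed Mueller glia markers (10 of 10) were between 2108 and 2400 CPM at the fovea and between 6326 and 8881 CPM at the periphery, the direction of PSAT1, PHGDH and DDIT3. Rod markers (9 of 9) went the same way, from between 4012 and 4609 CPM to between 23890 and 28040 CPM, as did RPE markers in the retina libraries, from 300.9 to 404.3 CPM at the fovea to 881.7 to 1757 CPM at the periphery. Astrocyte, microglia and macrophage, endothelium, smooth muscle and pericyte, and melanocyte markers were lower at the fovea too. No marker of these lists was at 0 in the retina, and their part in the members' differences was not tested. In RPE/choroid 3 of the 14 lists were higher at the fovea than at the periphery, 6 were lower and 5 overlapped. Smooth muscle and pericyte markers were 5976 to 9225 CPM at the fovea and 1045 to 2540 CPM at the periphery. Fibroblast markers were lower at the fovea (2883 to 3757 against 4990 to 10020 CPM). Schwann cell markers were too (343 to 413 CPM), with uneven peripheral eyes at 5130, 14580, 674 and 1223 CPM. Microglia and macrophage (2741 to 4227 against 4511 to 6248 CPM), melanocyte, astrocyte and bipolar cell markers were lower at the fovea as well. All 6 lists had the direction of DDIT3, PSAT1 and PHGDH there. The RPE and Mueller glia lists overlapped. The Mueller glia sum does not mark those cells alone. Its means were 5931 CPM at the fovea and 5831 CPM at the periphery of RPE/choroid, beside 2252 and 7607 CPM in retina. The part of these markers in the RPE/choroid differences was not tested either.

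The other genes of the pathway were read from fixed lists without the members. Some genes stand in several lists, such as ATF3, PPP1R15A and DNAJC3, so the counts of the lists overlap. Of the 36 other known ATF4 targets tested in retina, 15 were higher and 9 lower at the fovea than nasally, where 26.2% of all entries tested were higher and 25.7% lower. The median log2 difference was 0.14, beside -0.01 over all entries. SLC7A1, the cationic amino acid transporter, was highest in fold, at 44.7 ± 3.84 CPM (SD, n = 4) in fovea against 11.1 ± 0.844 CPM nasally (log2 difference 2.07 ± 0.15 SE, edgeR adjusted p = 1.47e-07). MTHFD2, a mitochondrial folate enzyme whose symbol stands on 3 entries, was at 7.46 ± 0.731 against 2.35 ± 0.621 CPM (1.74 ± 0.22). The stress factor ATF3 was at 3.23 ± 0.580 against 1.05 ± 0.316 CPM (1.67 ± 0.33). Lower at the fovea were the chromatin-binding stress protein NUPR1 (-1.34 ± 0.29), the translation repressor EIF4EBP1 (-0.91 ± 0.15) and the lipoprotein receptor VLDLR (-0.90 ± 0.09). These targets, like the members, went both ways.

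Aminoacyl-tRNA synthetases charge tRNAs, and ATF4 drives many of them. Of 19 tested 14 were higher at the fovea than nasally (26.2% of all entries), with a median log2 difference of 0.37 beside -0.01 over all entries. CARS held 51.8 ± 3.01 CPM in fovea and 26 ± 2.24 CPM nasally (1.05 ± 0.10, edgeR adjusted p = 1.06e-06), and YARS 107 ± 0.909 and 58.2 ± 2.22 CPM (0.94 ± 0.11). Against the periphery 10 were higher and 4 lower (31% and 36% of all entries), with a median of 0.19 beside -0.06. In RPE/choroid 4 were higher and 4 lower at the fovea than at the periphery (21.2% and 23% of all entries), with a median of -0.09 beside -0.06, and CARS was lower there (-0.62 ± 0.09, edgeR adjusted p = 0.0002).

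Upstream, 7 of 15 genes for eIF2alpha kinases, phosphatases and their partners were higher and 1 was lower at the foveal than at the nasal retina (median 0.11). With 7 not past the threshold, the share called is near the 51.9% of all entries, and nothing is read from it for the list. The kinases EIF2AK2, also known as PKR (0.58 ± 0.17), and EIF2AK3, also known as PERK (0.49 ± 0.09), were higher, as was the phosphatase subunit PPP1R15A, also known as GADD34 (0.56 ± 0.13). Its constitutive relative PPP1R15B was lower (-0.23 ± 0.08). Among 12 other bZIP and related factors 3 were higher and 4 lower (median -0.13), again near that share. NFE2L1, a factor best known for driving proteasome genes, was at 1002 ± 65.2 CPM in fovea and 460.7 ± 44.8 CPM nasally (1.18 ± 0.11, edgeR adjusted p = 7.71e-07).

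Genes for the glutathione cycle, in which CHAC1 acts, numbered 16 tested besides it. At the fovea 8 were higher and 3 lower than nasally (26.2% and 25.7% of all entries), with a median of 0.30. GGCT, which acts on the gamma-glutamyl amino acids, was at 26.5 ± 3.38 against 14.7 ± 1.98 CPM (0.91 ± 0.11, edgeR adjusted p = 1.06e-05). GCLC, the catalytic subunit of the first step of glutathione synthesis, was at 42.6 ± 3.37 against 27.8 ± 2.83 CPM (0.69 ± 0.11). CHAC2, the relative of CHAC1 with the same reaction, went against it, at 7.20 ± 1.23 in fovea and 12.4 ± 0.898 CPM nasally (-0.74 ± 0.11, edgeR adjusted p = 3.65e-05). CHAC2 was higher in retina than in RPE/choroid at the perimacula, as CHAC1 was (2.88 ± 0.19, edgeR adjusted p = 2.08e-11).

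In serine and one-carbon synthesis 6 of 14 other genes were higher and 4 lower at the foveal than at the nasal retina (26.2% and 25.7% of all entries), with a median of 0.20. Mitochondrial ALDH1L2 was higher (1.35 ± 0.26) with MTHFD2, while its cytosolic relative ALDH1L1 (-1.09 ± 0.17) and the glycine decarboxylase GLDC (-1.24 ± 0.13) were lower with PSAT1 and PHGDH. Of 24 chaperone and other unfolded protein response genes 9 were higher and 5 lower (median 0.05), beside the same shares of all entries. The oxidase ERO1A (0.73 ± 0.11) was higher and the chaperone HSP90B1 (-0.40 ± 0.05) lower. Of 15 genes between amino acids, sestrins and mTORC1 7 were higher and 2 lower (median 0.19) beside those shares, led by DEPTOR, an mTOR inhibitor (1.44 ± 0.16).

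For fovea minus periphery the lists are given in both tissues, with no test of the difference between them. In RPE/choroid 21.2% of all entries were higher at the fovea and 23% lower, and in retina 31% and 36%. Of the other ATF4 targets 7 were higher and 7 lower of 37 in RPE/choroid (median 0.07) and 18 and 11 of 36 in retina (median 0.42). Among those in RPE/choroid was the glycine transporter SLC6A9, at 168 ± 28.6 CPM in fovea and 45.2 ± 26.5 CPM in periphery (1.87 ± 0.44). The aminotransferase GPT2 was at 5.98 ± 0.601 and 46.5 ± 41.1 CPM (-2.62 ± 0.68), so its peripheral eyes were uneven. Of the unfolded protein response genes 14 of 24 were higher and 1 lower in RPE/choroid (median 0.27 beside -0.06 over all entries) and 8 and 6 in retina (median 0.00). Those higher in RPE/choroid included the co-chaperone DNAJC3 (1.14 ± 0.15) and the ubiquitin ligase SYVN1 (0.90 ± 0.08). In RPE/choroid the eIF2alpha list had 5 higher and 3 lower of 15, the bZIP list 5 and 1 of 12, the mTORC1 list 6 and 4 of 15. The retinal counts of these lists were 7 and 3, 4 and 2, and 8 and 5. The glutathione list had 1 higher and 3 lower of 16 in RPE/choroid and 7 and 5 in retina, with GCLM, the modifier subunit of glutathione synthesis, at 14.4 ± 5.13 CPM in foveal and 42.6 ± 8.95 CPM in peripheral RPE/choroid (-1.63 ± 0.19, edgeR adjusted p = 6.67e-05). The serine list had 1 higher and 4 lower of 14 in RPE/choroid and 4 and 5 in retina.

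Of 21 immediate early and heat shock genes, which also respond to the handling of tissue, 6 were higher and 0 lower at the foveal than at the nasal retina. Over all entries 26.2% were higher and 25.7% lower. The list median was 0.47, beside -0.015 over all entries. Against the periphery 13 of 21 were higher and 1 lower in retina (31% and 36% of all entries, median 0.58). The RPE/choroid counts were 15 higher and 0 lower of 22 (21.2% and 23%, median 0.63). In RPE/choroid EGR1 was at 169 ± 78.4 CPM in fovea and 40.9 ± 24.7 CPM in periphery (2.04 ± 0.28). Their summed level was 4653, 4612, 3044 and 3245 CPM in foveal retina and 3661, 3882, 2177 and 2098 CPM in peripheral retina, higher at the fovea in 4 of 4 eyes. It was also higher at the foveal RPE/choroid in 4 of 4 eyes (3042 to 4340 against 1945 to 3055 CPM), and its part in the members' differences was not tested.

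**Figure D4:**
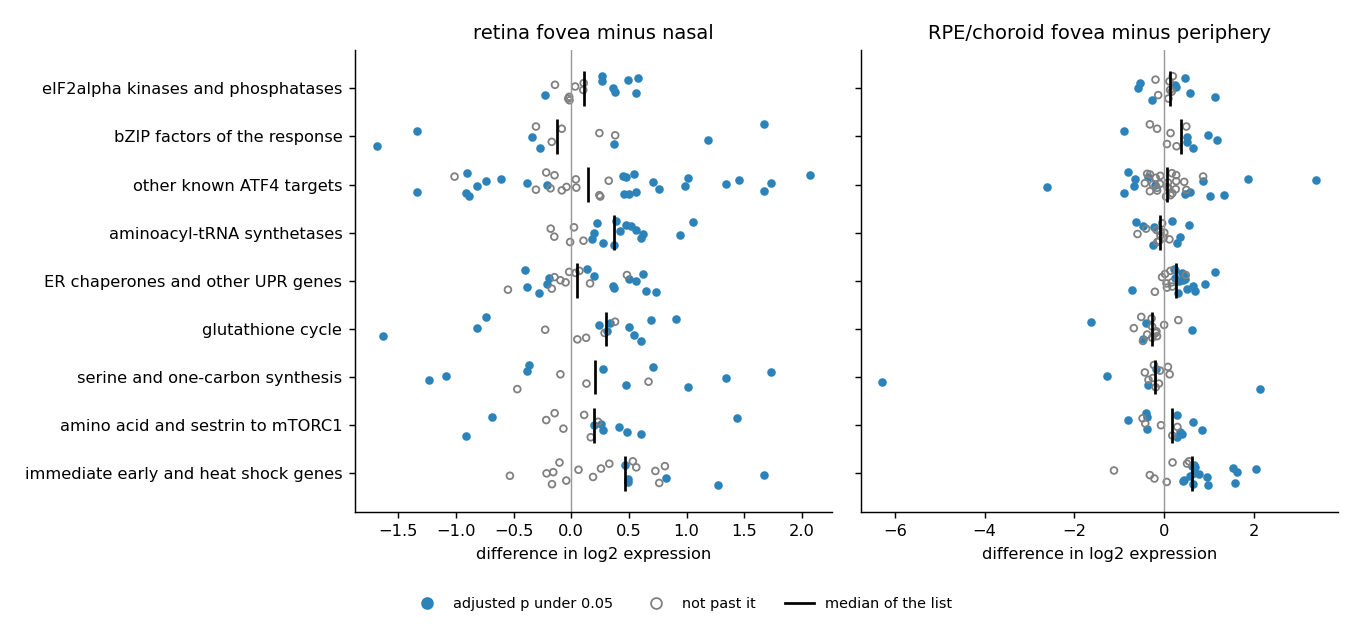
Differences in log2 expression of the genes in 9 fixed lists, members left out, for retina fovea minus nasal (left) and RPE/choroid fovea minus periphery (right). Filled points passed an adjusted p of 0.05, open points did not, and black lines are list medians. The list medians run from -0.13 to 0.47 in the left panel and from -0.28 to 0.63 in the right, and the other ATF4 targets spread on both sides of 0 in each.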

How the data were processed

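The members and gene lists were chosen with earlier results of these data known. Retina and RPE/choroid libraries were grouped by the tissue, location, monkey and eye given in the labels. The authors quantified reads with Salmon 0.13 against Mmul_8.0.1 transcripts, and the deposited values are estimated counts per gene and lane (length-scaled by tximport, in a column headed TPM). Lane files (136) were summed to 32 libraries and rounded. Library totals were 42454001 to 78587023. Normalization (TMM) and tests used edgeR 4.0.16 (quasi-likelihood, monkey as covariate, filterByExpr with a minimum count of 10, Benjamini-Hochberg adjustment over all entries, threshold 0.05), with R 4.3.3. Comparisons of fovea, perimacula and periphery were fitted without nasal libraries, as in the study, and nasal comparisons with all locations. Fits were tested on simulated data. Where a symbol stood on several entries, the one with the highest mean was used. No 2 libraries of a group matched within counting noise (variance at least 4.32 times it).

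Named genes were the members, up to 3 genes with the largest change in each direction among those past the threshold in each list with a mean log2 CPM of at least 1, and the 10 genes most correlated with CHAC1. Same-numbered libraries come from the same eye. Over the 1000 most variable genes, mean correlations of deviations from group means were 0.603 for the same eye, 0.601 for the fellow eye and -0.603 for the other monkey in retina (0.426, 0.451 and -0.437 in RPE/choroid). Alternatives were DESeq2 1.42.0, other normalizations and filters, blocking on the eye, dropping the covariate, fitting only the groups compared, single flow cells and leaving out each eye. Reads of near-identical copies could be split by the quantification. No sequence is shown.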

Additional observations from a re-analysis of the deposited data

Results flagged for a closer look

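In 3 of 56 groups of 4 libraries 1 library of a member stood apart from the other 3 by a Dixon test, where chance gives about 1 in 20. TRIB3 in perimacular RPE/choroid was 1.17 CPM in RM04 OS and 0.703 to 0.782 CPM in the other eyes. In peripheral RPE/choroid TRIB3 was 2.18 CPM in RM04 OD and 0.625 to 0.806 CPM in the others. ASNS in perimacular retina was 56.6 CPM in RM04 OS and 43.1 to 45.2 CPM in the others.

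For 8 pairs of a member and a location difference, the difference in retina and that in RPE/choroid differed in edgeR's interaction test, here given as retina minus RPE/choroid on the log2 scale. DDIT3 gave -0.57 ± 0.14 SE for fovea minus perimacula (edgeR adjusted p = 0.014), -0.52 ± 0.16 for fovea minus nasal (edgeR adjusted p = 0.0172) and -0.875 ± 0.143 for fovea minus periphery. For fovea minus nasal ASNS gave 1.075 ± 0.244 (edgeR adjusted p = 0.00192), PSAT1 -1.65 ± 0.20 (edgeR adjusted p = 1.46e-06) and PHGDH -1.27 ± 0.19 (edgeR adjusted p = 2.66e-05). For fovea minus periphery PSAT1 gave -1.12 ± 0.21 and PHGDH -1.20 ± 0.20. Each of these 8 had the same sign in 4 of 4 eyes. The fovea-minus-periphery values include the retinal contrast used to choose CHAC1 and carry no p here. The first DDIT3 value did not pass when any 1 eye was left out (-0.59 to -0.50), nor the second without RM03 OS (-0.53), RM04 OD (-0.32) or RM04 OS (-0.41). Neither passed with lanes of flow cell HLKJ7BBXX alone (-0.39 and -0.33). With no covariate the PHGDH value for fovea minus nasal did not pass (-1.22).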

How the results depend on the processing

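Over 1414 re-computed log2 differences of the members, 1309 kept their direction and their side of the threshold, 60 no longer passed, 10 passed only under the alternative, and 35 changed sign. The CHAC1 difference between retinal fovea and periphery ran from 4.06 to 5.21 when each eye was left out in turn, and its sign was the same under each alternative run. All 56 CPM group means were within 1 SD without TMM factors. RLE normalization and summing entries of a symbol changed no call.

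With the eye as a replicate block the count of members called besides CHAC1 was 1 in place of 3 for retina perimacula minus nasal and 0 in place of 2 for RPE/choroid perimacula minus nasal, ASNS was called for RPE/choroid fovea minus periphery, and no other call changed. DESeq2 also called ASNS there (0.396) and for RPE/choroid perimacula minus nasal (-0.556), and changed no other call. With no covariate those perimacula counts were 0 and 0. Dropping the covariate also took away the call of PHGDH for retina fovea minus perimacula (-0.53) and RPE/choroid fovea minus periphery (-0.46). So it did for the PHGDH tissue difference in fovea minus nasal (-1.22) and for SESN2 in retina fovea minus nasal (0.18). With the compared groups alone 1 was called for retina perimacula minus nasal and 1 for RPE/choroid fovea minus perimacula, in place of 0. With lanes of flow cell HLKMNBBXX alone 2 were called in the last comparison and with HLKJ7BBXX alone 1, and with the latter 0 in place of 1 had a tissue difference in fovea minus perimacula. Leaving out 1 eye gave 3 to 4 calls in place of 5 for retina fovea minus nasal, 0 for either perimacula minus nasal comparison, and 0 for the tissue difference in fovea minus perimacula. These fits hold fewer eyes. The cause of the other changes was not tested.

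The sign changed only among differences that did not pass to begin with. In RPE/choroid fovea minus perimacula, leaving out an eye gave -0.013 to 0.688 for CHAC1 and -0.039 to 0.089 for ASNS. Fovea minus nasal gave -0.011 to 0.718 for CHAC1 and -0.092 to 0.177 for SESN2. Perimacula minus nasal gave -0.423 to 0.634 for CHAC1, -0.082 to 0.137 for DDIT3, -0.002 to 0.232 for TRIB3 and -0.159 to 0.044 for SESN2. Fovea minus periphery gave -0.142 to 0.723 for TRIB3, and in retina -0.06 to 0.008 for SESN2. Retina minus RPE/choroid gave -0.065 to 0.037 for DDIT3 and -0.183 to 0.032 for SESN2 at the fovea, -0.174 to 0.097 for SESN2 and -0.215 to 0.048 for PSAT1 at the perimacula, and -0.358 to 0.062 for SESN2 nasally. The tissue difference gave -0.066 to 0.055 for SESN2 in fovea minus perimacula, -0.3 to 0.006 for TRIB3 and -0.047 to 0.322 for SESN2 in fovea minus nasal, and -0.987 to 0.745 for TRIB3 in fovea minus periphery.

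With no covariate TRIB3 was -0.009 in RPE/choroid fovea minus periphery, SESN2 -0.02 in RPE/choroid fovea minus nasal, and SESN2 0.012 in the tissue difference of fovea minus perimacula, which was 0.008 with at least 10 counts in every library. Lanes of HLKMNBBXX alone gave -0.043 for CHAC1 and -0.16 for TRIB3 in RPE/choroid perimacula minus nasal, and 0.633 for TRIB3 in the tissue difference of fovea minus nasal. Lanes of HLKJ7BBXX alone gave -0.049 for ASNS in RPE/choroid fovea minus perimacula, -0.018 for SESN2 in RPE/choroid fovea minus nasal, 0.035 for DDIT3 in retina minus RPE/choroid at the fovea, and 0.111 for SESN2 in the tissue difference of fovea minus perimacula. Counts of 0 to 6.05 per retinal library limit TRIB3, and 2 monkeys limit every comparison.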
